A study of Mus musculus with 8 samples.

Results

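Secreted lipases and their partners were followed in the prostate of mice with and without *Olfm4*. The group holds 10 genes: *Pnlip*, *Pnliprp1*, *Pnliprp2*, *Clps*, *Cel*, *Lipa*, *Lipc*, *Lipg*, *Lpl* and *Liph*. It was chosen by the large difference of *Pnliprp1* and *Pnliprp2* between the genotypes on these arrays, so the values of those genes are given as a description without a test. The other members were included by family and function, although earlier results of these data were known when they were chosen. Of the 10 genes, 8 had a probe set of their own, with 16 probe sets among the 45037 tested. The remaining pair, *Pnlip* and *Lipc*, is not analysed here.

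The study compared prostate gene expression in mice lacking *Olfm4*, which encodes the secreted glycoprotein olfactomedin 4, with that in wild-type mice, to look for mechanisms behind tumor formation in the knockout prostate. Whole prostate RNA was hybridized to 4 arrays from *Olfm4*-knockout and 4 arrays from wild-type mice, all 3 months old. Every mouse had the same mixed background, made up to 50% of 129/SV and to 50% of the Black Swiss stock of the National Institutes of Health. The mice were bred from heterozygotes, so that the deletion was not limited to the prostate, and no agent was given. The platform was the Affymetrix Mouse Genome 430 2.0 array, and the deposited values are log2 values made with RMA (robust multi-array average, which corrects background, equalizes the arrays and summarizes the probes of a probe set). The dates that open the array titles define 2 array days, each with 2 arrays of either genotype. Knockout arrays 3 and 4 and wild-type arrays 1 and 4 belong to day 1, and the others to day 2. The methods speak of individual mice, 5 per genotype, where the labels hold 4 arrays. The legend of the study's microarray figure gives 4 or 3 mice per genotype for the ages studied.

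Array medians ran from 6.03 to 6.09, and array-to-array correlations from 0.983 to 0.996. The targeted gene fitted the labels: *Olfm4* averaged 3.11 ± 0.10 (SD, n = 4) in knockout and 10.48 ± 0.25 in wild-type prostate. Knockout array 1 and wild-type array 1 stood apart, with mean log2 values of 5 seminal vesicle markers of 13.75 and 14.15, against 7.59 to 9.81 on the other 6 arrays. Both also held the most adipocyte marker signal. Member values are therefore also given without this pair. Because whole tissue was measured, fewer cells of a type and less RNA per cell cannot be told apart.

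Lipases release fatty acids from triglycerides, phospholipids or cholesteryl esters. Most genes of the group belong to the pancreatic lipase family, in which pancreatic lipase and its related proteins act in digestive juice, lipoprotein lipase and endothelial lipase act on lipoproteins at the vessel wall, and lipase H acts on phosphatidic acid. The lysosomal acid lipase encoded by *Lipa* and the bile salt-dependent carboxyl ester lipase encoded by *Cel* belong to other families, and colipase is not an enzyme but the protein that anchors pancreatic lipase to fat droplets in the presence of bile salts. The prostate is itself a secretory gland, whose luminal cells release a fluid rich in enzymes and other proteins.

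*Pnliprp1* and *Pnliprp2* lie next to each other and to *Pnlip* on mouse chromosome 19. *Pnliprp1* encodes pancreatic lipase-related protein 1, a pancreatic lipase homolog with little or no known activity on triglycerides. On its probe set 1415777_at the knockout arrays 1 to 4 read 13.57, 13.32, 13.27 and 13.07, and the wild-type arrays 8.46, 7.97, 8.46 and 8.17. The lowest knockout array was far above the highest wild-type array, and the spread within each genotype was small. The difference was 5.04 on the log2 scale (SE 0.15, 95% confidence interval 4.70 to 5.39), or 33.0-fold. It was 4.86 within array day 1, 5.23 within day 2, and 5.06 without knockout array 1 and wild-type array 1.

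*Pnliprp2* encodes pancreatic lipase-related protein 2, an active enzyme that also cleaves galactolipids and phospholipids and that is known from pancreas and from cytotoxic T cells. On probe set 1437438_x_at the knockout arrays read 12.31, 11.86, 11.60 and 10.95, and the wild-type arrays 4.58, 4.26, 4.71 and 4.96. On probe set 1448186_at the knockout arrays read 11.55, 11.19, 10.64 and 9.93, and the wild-type arrays 4.59, 3.86, 4.65 and 4.52. No knockout array came near a wild-type array on either probe set. The differences were 7.05 (SE 0.28, interval 6.41 to 7.70) and 6.42 (SE 0.33, interval 5.65 to 7.20) on the log2 scale. The wild-type means of 4.63 and 4.40 lie below a log2 value of 5, the level treated here as near background. Both differences may therefore understate the change, but background was not estimated for these probe sets. The suffix x of the first probe set marks probes that can also match other transcripts, and the second probe set carries no such mark.

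**Figure D1:**
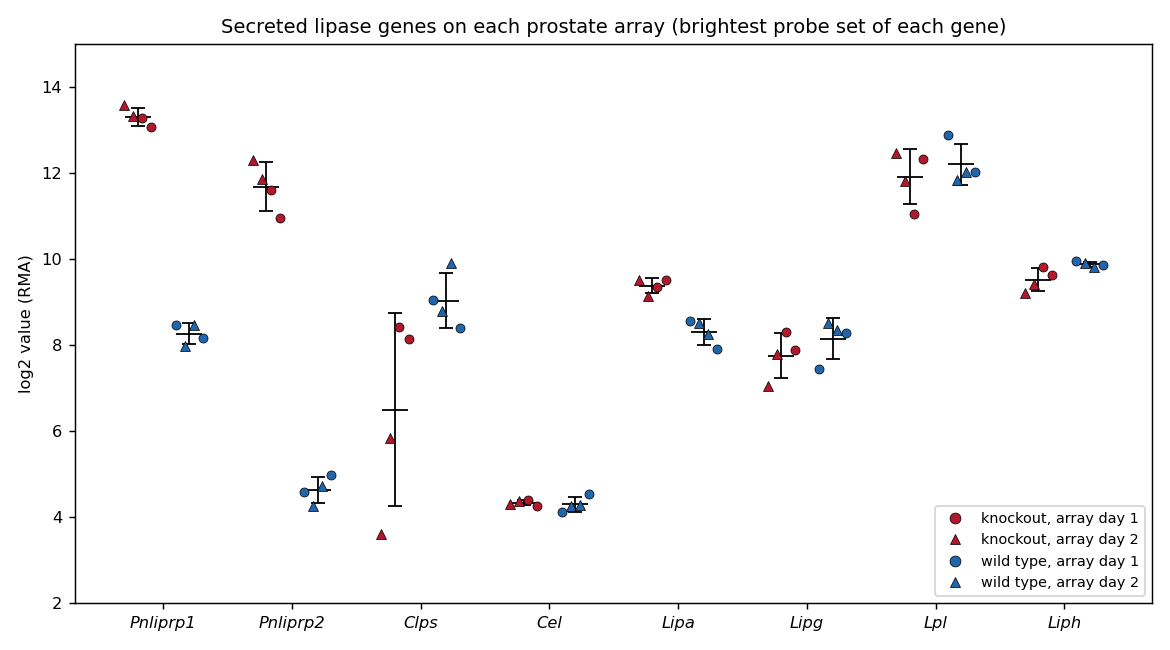
Log2 values of the 8 measured lipase genes on each array, for the brightest probe set of each gene, with knockout arrays in red, wild-type arrays in blue, circles for array day 1 and triangles for day 2. Bars show mean ± SD (n = 4 arrays); *Pnliprp1* and *Pnliprp2* were far apart between genotypes, *Lipa* was apart without overlap by about 1 log2 unit, and *Clps* was low on knockout arrays 1 and 2.

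The size of the signal varied among the knockout arrays in the same order on all 3 probe sets, from array 1 down to array 4. The difference in *Pnliprp2* was 6.50 within array day 1 and 7.60 within day 2 on probe set 1437438_x_at, and 5.73 and 7.12 on 1448186_at. Knockout arrays 1 and 2, the higher pair, were the day 2 arrays, so day and mouse cannot be told apart here. The mean log2 value of the 5 seminal vesicle markers was 13.75, 9.81, 9.76 and 8.82 on the knockout arrays 1 to 4 and 14.15 on wild-type array 1, where *Pnliprp1* and *Pnliprp2* were low. Its part in the order of the knockout arrays was not tested. The *Pnliprp2* differences without knockout array 1 and wild-type array 1 were 6.84 and 6.35. Of all probe sets tested, 50 of 45037 (0.111%) passed an adjusted p under 0.05, and 31 of 18193 genes (0.170%) did so by their brightest probe set. These totals cover all probe sets, those of *Pnliprp1* and *Pnliprp2* included. The differences of these genes chose the group, so the totals are no test of them.

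The sequences before the 3 pancreatic lipase genes are shown because *Pnliprp1* and *Pnliprp2* moved together and *Pnlip* is their neighbor. Each is the 250 bases before the transcription start in the RefSeq annotation of GRCm38.p6, on the plus strand, which is the strand of the genes. Capitals mark matches on either strand to 4 motifs: TGGGAA, a box of the RBPJ type; CANNTG, the E box bound by basic helix-loop-helix factors; AGAACA, a half-site of the androgen response element; and TATAAA, the TATA box.
Pnlip chr19:58670115-58670364 (+): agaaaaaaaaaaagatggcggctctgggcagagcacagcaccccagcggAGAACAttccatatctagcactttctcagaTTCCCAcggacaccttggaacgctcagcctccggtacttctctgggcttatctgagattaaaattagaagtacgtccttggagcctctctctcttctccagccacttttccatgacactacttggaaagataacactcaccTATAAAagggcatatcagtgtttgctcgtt
Pnliprp1 chr19:58728637-58728886 (+): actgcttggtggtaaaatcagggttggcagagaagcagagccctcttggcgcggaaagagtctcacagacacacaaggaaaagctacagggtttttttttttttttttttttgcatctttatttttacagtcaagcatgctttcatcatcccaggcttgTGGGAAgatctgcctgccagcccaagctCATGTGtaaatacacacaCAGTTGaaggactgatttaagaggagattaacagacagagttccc
Pnliprp2 chr19:58759473-58759722 (+): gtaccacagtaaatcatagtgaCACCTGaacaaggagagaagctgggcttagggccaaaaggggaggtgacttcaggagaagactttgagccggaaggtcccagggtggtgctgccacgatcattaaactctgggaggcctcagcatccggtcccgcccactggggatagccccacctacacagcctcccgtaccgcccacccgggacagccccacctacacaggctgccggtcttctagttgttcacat

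The RBPJ-type box stood 91 to 86 bases before the start of *Pnliprp1* and, on the opposite strand, 171 to 166 bases before that of *Pnlip*. *Pnliprp1* also held E boxes at 63 to 58 and 45 to 40 bases before the start, and *Pnliprp2* held a single match, an E box at 228 to 223. The TATA box and the androgen half-site were matched in the *Pnlip* window only, among these 3. These motifs are short and common: TGGGAA was found in 21.6% of 32851 RefSeq windows of the same length, CANNTG in 66.2%, AGAACA in 16.1% and TATAAA in 12.4%. No motif was matched in the windows of both *Pnliprp1* and *Pnliprp2* other than the E box. Pairs of windows were aligned over their whole length with gaps allowed, in 265 to 270 columns. The windows were 43% identical between *Pnlip* and *Pnliprp1*, 44.9% between *Pnlip* and *Pnliprp2*, and 45.1% between *Pnliprp1* and *Pnliprp2*. No unrelated windows were aligned for comparison, so these shares do not show that the windows are alike. A match is a string of letters and not evidence of binding.

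Genes beside the cluster did not show differences of this size. Of the 10 nearest measured genes on each side, 20 in all, none was called by limma, 4 had an unadjusted p under 0.05, and the log2 fold changes ran from -0.38 to 0.81. Among all 18193 genes, 14.8% had an unadjusted p under 0.05. The nearest genes before the cluster were *Ccdc172* at 0.00065, *1810007D17Rik* at 0.20 and *1810018F18Rik* at -0.051, and the nearest after it were *1700019N19Rik* at -0.27 (adjusted p 0.380), *Hspa12a* at 0.037 and *Eno4* at -0.38 (adjusted p 0.305). Several of these genes were dim, with mean values under 5, so that a difference in them could have gone unseen. Of the 609 measured genes of chromosome 19, the lipases that chose the group aside, only *Cbwd1* was called. It was named after its values were seen and fell by 0.78 (adjusted p 0.0414).

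The pancreatic acinar program is the setting in which *Pnliprp1*, *Pnliprp2*, *Clps* and *Cel* are normally found together, and 22 of 29 other acinar genes were measured. None was called in either direction. The mean was higher in knockout prostate for 13 and lower for 9, with 2 genes each way at an unadjusted p under 0.05 and a median log2 fold change of 0.071, against -0.015 over all genes. Of all 18193 genes, 8406 had a higher mean and 9787 a lower one, and 14.8% had such a p. Mean log2 values over the 22 genes ran from 6.111 to 6.30 on the knockout arrays and from 6.04 to 6.107 on the wild-type arrays. The ranges came close but did not meet. The highest mean was that of knockout array 1, which includes a *Cuzd1* value of 9.745, far above that gene on every other array. Of the 22, 9 had means under 5 and so were near background. Among these, *Ctrb1*, which encodes chymotrypsinogen B, averaged 3.67 in knockout and 3.73 in wild-type prostate. *Cpb1*, which encodes carboxypeptidase B, averaged 3.70 and 3.71. Other genes of the list were well above background in both genotypes. Examples are *Bhlha15*, at 13.28 in knockout and 13.18 in wild-type prostate, and *Cela3b*, at 7.28 and 7.13. All of these genes are named after their values were seen.

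The acinar gene with the smallest p was *Cela1*, an elastase also made outside the pancreas. Its knockout arrays read 8.42, 9.31, 10.08 and 9.79, and its wild-type arrays 8.53, 8.03, 8.06 and 8.68. Knockout array 1 lay within the wild-type range and the other 3 above it. The difference was 1.08 (SE 0.20, adjusted p 0.164). Without knockout array 1 it was 1.30 (adjusted p 0.00846), which made *Cela1* the 1 acinar gene called, and it was 1.26 when wild-type array 1 was left out as well (adjusted p 0.0324). *Cpa1*, carboxypeptidase A1, was -0.46 (adjusted p 0.247), with all knockout arrays below all wild-type arrays, and *Pdia2*, a pancreatic protein disulfide isomerase, was -0.44 (adjusted p 0.385). *Cuzd1*, named here after its values were seen, read 9.74 on knockout array 1 and 3.85 to 4.10 on the other 7 arrays.

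**Figure D2:**
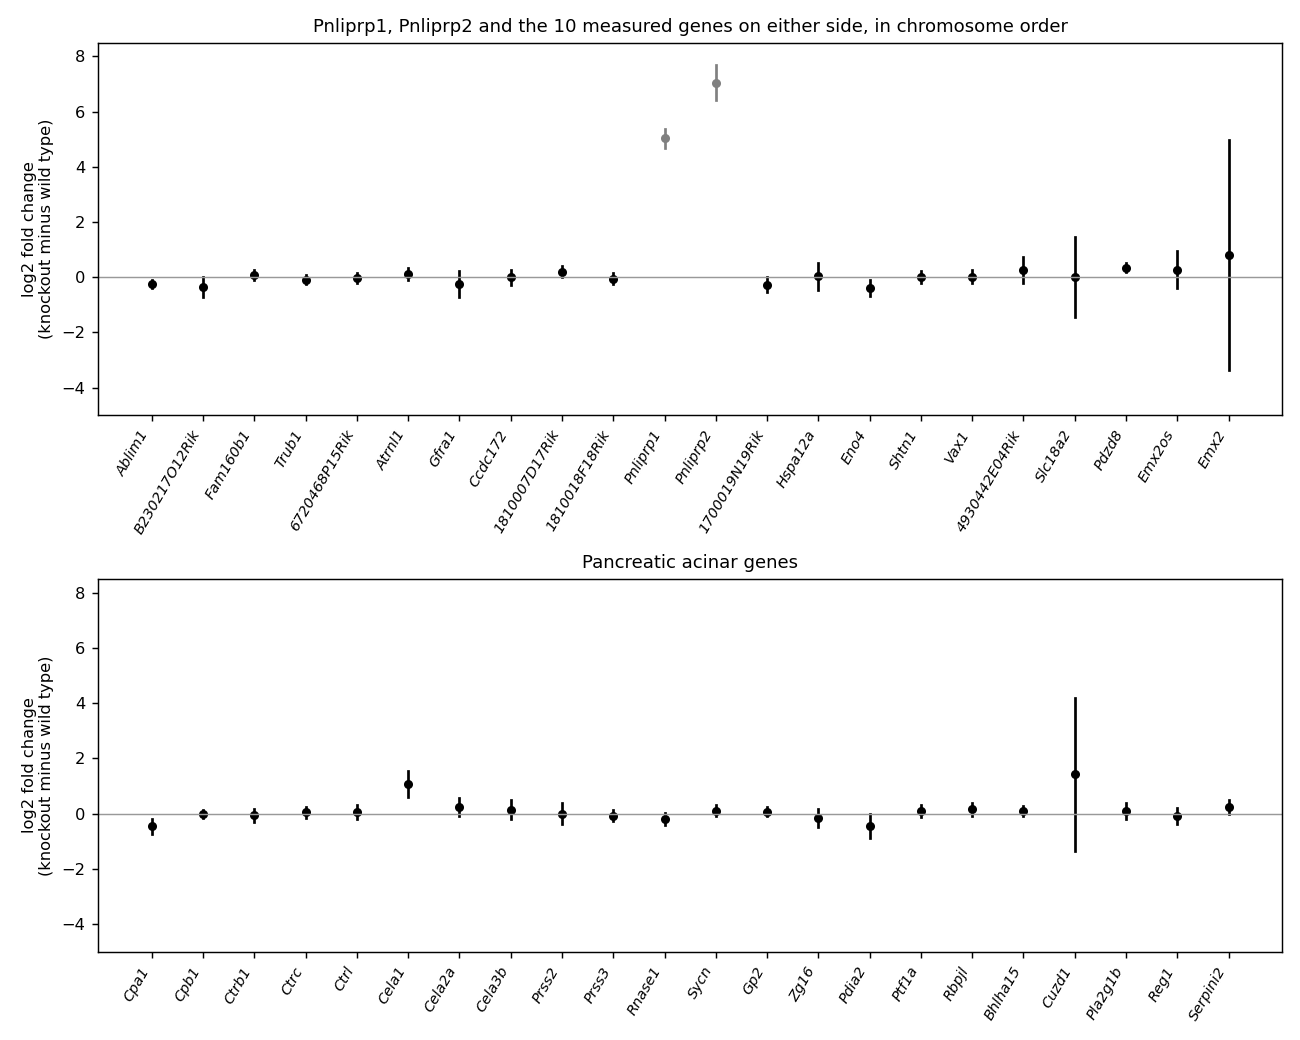
Log2 fold change, knockout minus wild type, with 95% confidence intervals for *Pnliprp1* and *Pnliprp2* (gray) among their 20 nearest measured genes in chromosome order (top) and for 22 pancreatic acinar genes (bottom), on the same scale. The 2 lipases, which chose the group, stand at 5.04 and 7.05. None of the genes in black was called. The wide intervals belong to genes that varied strongly within a genotype, such as *Cuzd1*.

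Colipase, the cofactor of pancreatic lipase, went the other way in its means. On probe set 1438612_a_at of *Clps* the knockout arrays read 3.59, 5.85, 8.42 and 8.13, and the wild-type arrays 9.04, 8.79, 9.90 and 8.40. Knockout arrays 1 and 2 were far below every wild-type array, while array 3 lay at the lower edge of the wild-type range and array 4 slightly below it. Probe set 1415805_at gave the same picture, with knockout values of 4.91, 5.83, 7.58 and 7.39 and wild-type values of 8.24, 7.74, 8.70 and 7.50. The differences were -2.54 (SE 0.90, adjusted p 0.322) and -1.61 (SE 0.53, adjusted p 0.302), so neither passed the test.

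The *Clps* difference was larger within array day 2 than within day 1. Within day 1 it was -0.45 and -0.39 on the 2 probe sets, and within day 2 -4.63 and -2.84. The difference between the days had an unadjusted p of 0.0059 and 0.0062, and an adjusted p of 0.890 for both over all probe sets, in the limma fit with an interaction term. With 2 arrays per genotype and day, the low *Clps* arrays rest on 2 mice, so day and mouse cannot be told apart here. Without knockout array 1 and wild-type array 1 the differences were -1.81 and -1.20. The knockout arrays with the highest *Pnliprp2*, 1 and 2, had the lowest *Clps*, whereas array 3 was above array 4 for both genes.

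*Cel*, the bile salt-dependent lipase of pancreatic juice and milk, was near background in both genotypes. Its knockout arrays read 4.26 to 4.39 and its wild-type arrays 4.11 to 4.52, and the difference was 0.040 (SE 0.097, interval -0.19 to 0.26, adjusted p 0.900). Without knockout array 1 and wild-type array 1 it was -0.051. The values of the digestive lipase genes thus differed in direction and level. *Pnliprp1* and *Pnliprp2* were higher on all knockout arrays. *Clps* was far lower on 2 of 4 but was not called, and *Cel* was not detectable as different at this signal.

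*Lipa* encodes lysosomal acid lipase, which frees fatty acids and cholesterol from lipoproteins taken up by the cell. Its brightest probe set, 1423140_at, read 9.50, 9.14, 9.36 and 9.50 on the knockout arrays and 8.55, 8.52, 8.26 and 7.90 on the wild-type arrays. All knockout arrays were above all wild-type arrays, and this held on each of its 3 probe sets. Over all probe sets, 3.69% had every knockout array above every wild-type array and 5.03% had every one below. The differences were 1.07 (SE 0.16, interval 0.69 to 1.45), 1.27 on 1423141_at and 0.64 on 1450872_s_at, with adjusted p of 0.0982, 0.132 and 0.126 in the limma fit. None therefore passed the test. The 3 probe sets measure the same RNA on the same arrays and are not independent.

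Within array day 1 the *Lipa* difference on 1423140_at was 1.21, and within day 2 it was 0.93. With array 1 of each genotype left out it was 1.14 (adjusted p 0.174), and it was 1.48 on 1423141_at and 0.63 on 1450872_s_at. Over all alternatives and probe sets the difference lay between 0.44 and 1.48, and the lowest adjusted p was 0.054. Macrophages are rich in *Lipa*, and the mean log2 value of 8 macrophage markers ran from 9.44 to 10.02 on the knockout arrays and from 9.54 to 10.02 on the wild-type arrays. In the mean, 1 marker was higher and 7 were lower, against 8406 genes higher and 9787 lower among all 18193. The part of macrophages in the *Lipa* difference was not tested. The other genes of lysosomal cholesterol handling, 8 of 9 measured, had a median log2 fold change of 0.033, and none was called. Of these, *Lamp2*, a lysosomal membrane protein, was at 0.22 (adjusted p 0.366), the cholesterol exporter *Npc1* at -0.16 (adjusted p 0.593) and its soluble partner *Npc2* at -0.074 (adjusted p 0.648).

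*Lipa* is also on chromosome 19, with 213 measured genes between it and *Pnliprp1*. The 20 nearest measured genes around *Lipa*, a set chosen after its values were seen, held no called gene and 4 with an unadjusted p under 0.05, all lower in knockout prostate. Among all genes 14.8% had such a p. The neighbors include related acid lipases: *Lipf*, the gastric lipase, was at 0.17 (adjusted p 0.531), and *Lipm*, an epidermal acid lipase, at -0.25 (adjusted p 0.575). *Lipo2*, *Lipf*, *Lipk* and *Lipn* were all dim. The interferon-induced gene *Ifit3*, the second gene after *Lipa*, was at -1.58 (adjusted p 0.0956), with all knockout arrays below all wild-type arrays.

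**Figure D3:**
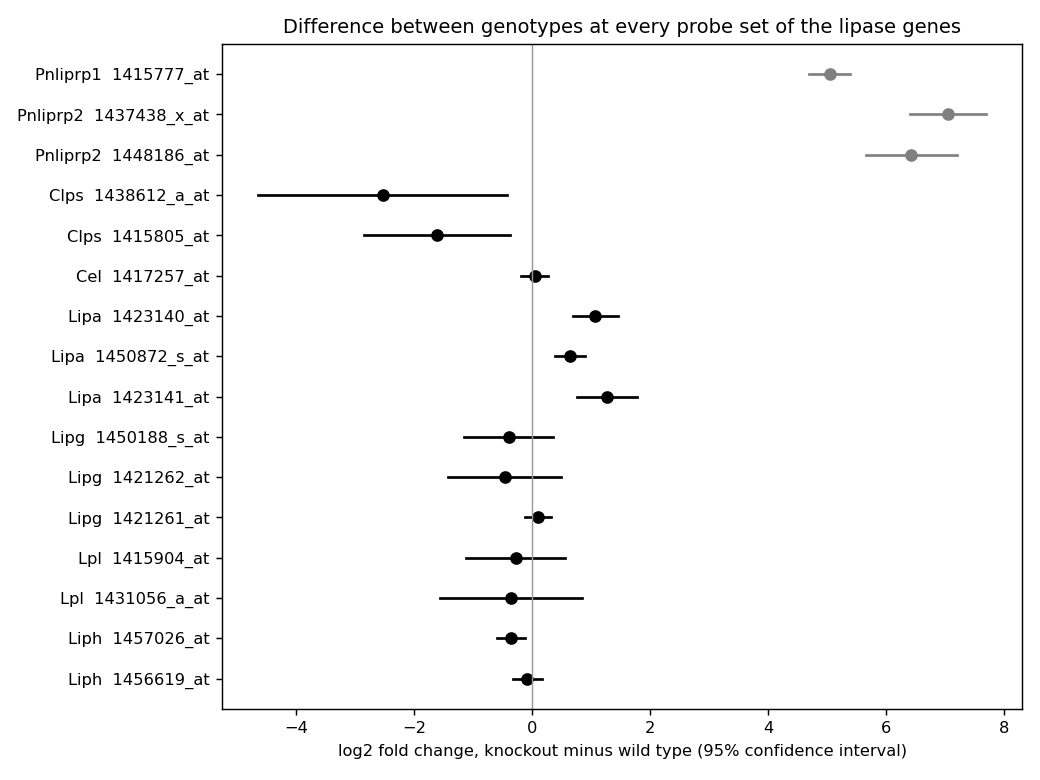
Log2 fold change, knockout minus wild type, with its 95% confidence interval for each of the 16 probe sets, labelled by gene and probe set, with the probe sets of *Pnliprp1* and *Pnliprp2*, which chose the group, in gray. The 3 *Lipa* intervals lie above 0 and the *Clps* intervals are wide and below 0; these intervals are not adjusted for the number of probe sets, and none of the 13 black points passed the adjusted test.

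The lipases of the vessel wall showed no called difference. *Lpl*, lipoprotein lipase, hydrolyzes the triglycerides of circulating lipoproteins and is made mainly by adipocytes and muscle. Its probe set 1415904_at read 12.46, 11.82, 11.05 and 12.33 on the knockout arrays and 12.89, 11.84, 12.03 and 12.03 on the wild-type arrays, and the genotypes overlapped. The differences were -0.28 (SE 0.36, interval -1.12 to 0.56, adjusted p 0.790) and, on 1431056_a_at, -0.36 (SE 0.52, interval -1.56 to 0.85, adjusted p 0.818). A difference within these intervals was not detectable at this spread. Without knockout array 1 and wild-type array 1 the differences were -0.23 and -0.16.

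*Lpl* varied with adipocyte markers from array to array. The mean log2 value of 7 adipocyte markers was 9.11, 7.39, 6.58 and 7.79 on the knockout arrays and 9.90, 6.86, 7.43 and 6.52 on the wild-type arrays. The 3 arrays with the most adipocyte signal, wild-type array 1 and knockout arrays 1 and 4, were also the 3 with the most *Lpl*. The order is not complete, since wild-type array 4 had the least adipocyte signal and an intermediate *Lpl*. Skeletal muscle markers were highest on knockout array 3, at 9.27 against 7.31 to 7.98 on the others, and that array had the lowest *Lpl*. The part of either tissue in the *Lpl* values was not tested.

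**Figure D4:**
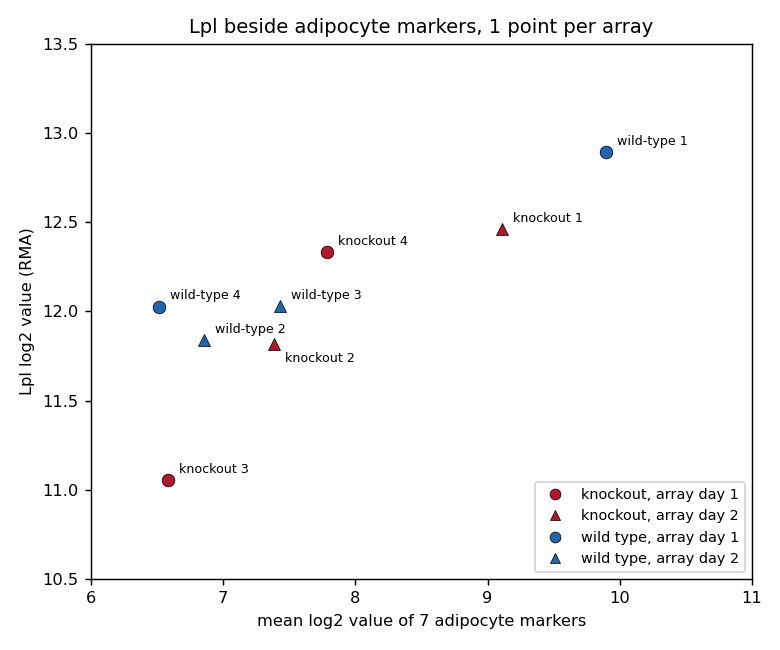
*Lpl* log2 value (probe set 1415904_at) against the mean log2 value of 7 adipocyte markers, 1 point per array, with knockout arrays in red and wild-type arrays in blue, circles for array day 1 and triangles for day 2. Wild-type array 1 and knockout arrays 1 and 4 are highest on both axes, and the genotypes are intermixed.

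*Lipg* encodes endothelial lipase, which acts mainly on the phospholipids of high-density lipoproteins. Probe set 1450188_s_at read 7.04, 7.79, 8.29 and 7.88 on the knockout arrays and 7.45, 8.51, 8.34 and 8.29 on the wild-type arrays, and the genotypes overlapped, with array 1 the lowest of each. The differences were -0.40 (SE 0.32, adjusted p 0.651), -0.46 on 1421262_at (SE 0.41, adjusted p 0.683) and 0.094 on the dim 1421261_at (SE 0.096, adjusted p 0.729). The sign of the first pair differed between the array days: 0.22 and 0.43 within day 1, -1.02 and -1.36 within day 2. The difference between days had an adjusted p of 0.890 for both. Array 1, the lowest of each genotype on both probe sets, fell on day 1 for wild type and on day 2 for knockout. Without knockout array 1 and wild-type array 1 the differences were -0.42 and -0.38, and 0.13 on 1421261_at. The part of these arrays in the difference between days was not tested. The mean log2 value of 8 endothelial markers on the day 2 arrays was 7.91 and 7.40 for knockout and 7.47 and 7.35 for wild type, and its part in the *Lipg* values was not tested.

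*Liph*, lipase H, makes lysophosphatidic acid from phosphatidic acid at the cell surface and is known for its role in hair growth. On 1457026_at the knockout arrays read 9.21, 9.42, 9.81 and 9.64, and the wild-type arrays 9.95, 9.90, 9.81 and 9.86. Knockout arrays 1, 2 and 4 lay below every wild-type array and array 3 at the wild-type minimum. The difference was -0.36 (SE 0.10, interval -0.60 to -0.13, adjusted p 0.263), with -0.18 within day 1 and -0.55 within day 2. The second probe set, 1456619_at, was at -0.084 (SE 0.11, adjusted p 0.788), 0.13 within day 1 and -0.30 within day 2. Without knockout array 1 and wild-type array 1 the differences on these probe sets were -0.29 and -0.015. Low *Liph* and low *Clps* fell on the same knockout arrays, 1 and 2.

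**Figure D5:**
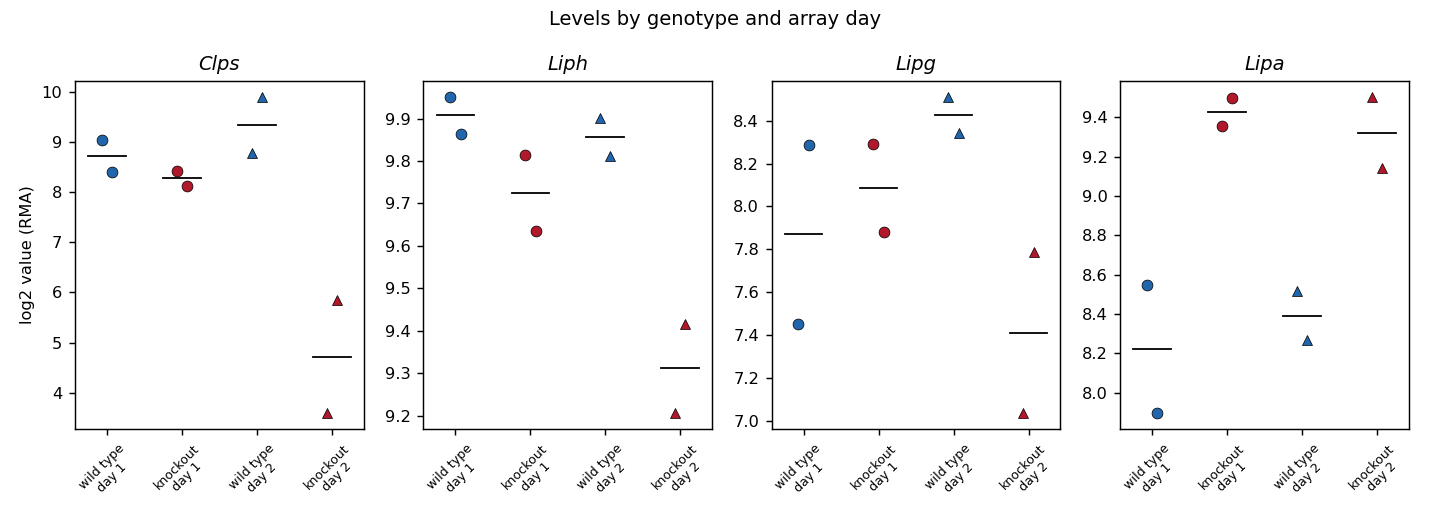
Log2 values of *Clps*, *Liph*, *Lipg* and *Lipa* (brightest probe sets) by genotype and array day, with 2 arrays per genotype and day and a line at their mean; each panel has its own axis. The knockout arrays of day 2 are the lowest for *Clps*, *Liph* and, in the mean, *Lipg*, whereas *Lipa* is higher in knockout prostate on both days.

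Outside *Pnliprp1* and *Pnliprp2*, none of the 13 member probe sets was called by limma, and 6 had an unadjusted p under 0.05, 3 of *Lipa* higher and 2 of *Clps* and 1 of *Liph* lower. Over all probe sets 12.8% had such a p. The 13 differences ran from -2.54 to 1.27 with a median of -0.28, against -0.014 over all probe sets. Of the 13, the 3 *Lipa* probe sets were free of overlap between the genotypes, all above, against 3.69% of all probe sets above and 5.03% below. Probe sets of a gene are not independent, so these shares are a description.

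The partners of the plasma lipases, 14 of 16 measured, were described next. None was called, the mean was above the wild type for 6 and below it for 8, 1 in each direction had an unadjusted p under 0.05, and the median was -0.013. Of all 18193 genes, 8406 had a mean above the wild type and 9787 below it, and 14.8% had such a p. *Gpihbp1*, which anchors lipoprotein lipase to the capillary wall, read 7.78, 7.95, 7.83 and 7.88 on the knockout arrays and 8.58, 8.28, 8.45 and 8.11 on the wild-type arrays. The arrays did not overlap, and the difference of -0.49 did not pass (SE 0.11, adjusted p 0.209). *Angptl4*, an inhibitor of lipoprotein lipase, was at 0.64 (SE 0.25, adjusted p 0.363), again without overlap, with 0.18 within day 1 and 1.09 within day 2. *Vldlr*, a receptor that helps lipoprotein lipase act, was at 0.50 (adjusted p 0.428).

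Inside the cell, 17 of 18 genes of lipolysis and lipid droplets were measured, and none was called. The mean was lower in knockout prostate for 11 of them, 4 at an unadjusted p under 0.05 and none higher, and the median was -0.13. Of all 18193 genes, 9787 had a lower mean, 14.8% had such a p in either direction, and the median was -0.015. *Plin2*, the coat protein of lipid droplets, read 10.76, 10.57, 10.57 and 10.62 on the knockout arrays and 10.96, 10.93, 11.06 and 10.83 on the wild-type arrays, without overlap, at -0.32 (SE 0.072, adjusted p 0.209). *Abhd6*, a monoacylglycerol lipase, was at -0.47 (adjusted p 0.295) and *Ddhd1*, an intracellular phospholipase, at -0.29 (adjusted p 0.316). Of 21 genes of fatty acid uptake and triglyceride synthesis, all measured, none was called, 14 had a lower mean, 4 of these and 1 higher gene had an unadjusted p under 0.05, and the median was -0.046. *Dgat1*, which makes triglycerides, was at -0.36 (adjusted p 0.251), *Acaca*, acetyl-CoA carboxylase, at -0.27 (adjusted p 0.320), and *Fasn*, fatty acid synthase, at -0.18 (adjusted p 0.323).

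Other secreted and acid lipases showed no called difference. Of 8 measured acid, phosphatidylserine and phosphatidic acid lipases none had an unadjusted p under 0.05, and the median was 0.022. Among all 18193 genes, 14.8% had such a p and 0.170% were called, so counts of 0 in lists this short say little. *Lipo3* was at 0.18 (adjusted p 0.679). All 13 secreted phospholipases A2 were measured, none was called, and 1, lower in knockout prostate, had an unadjusted p under 0.05. Their median was -0.021, and the values ran from -0.58 for *Pla2g12b* (adjusted p 0.635), named after its values were seen, to 0.18. *Pla2g12a* was at -0.33 (SE 0.12, adjusted p 0.325), with all knockout arrays below all wild-type arrays, as in 5.03% of all probe sets.

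Markers of other cells that could carry these genes were compared as whole lists. T and NK cell markers, of which 8 of 9 were measured, were lower in the mean for 7, with a median of -0.59. Of all 18193 genes, 9787 were lower in the mean. At an unadjusted p under 0.05, 4 of the markers were lower, against 14.8% of all genes in either direction. No T or NK cell marker was called (lowest adjusted p 0.281), and their mean log2 values ran from 6.23 to 6.85 on the knockout and from 6.57 to 7.19 on the wild-type arrays. Their part in the values of *Pnliprp2*, which is known from cytotoxic T cells, was not tested. Luminal epithelial markers, 6 of 8 measured, had a median of -0.023, secretory markers of the prostate, 5 of 8 measured, 0.065, and hepatocyte markers, 5 of 6 measured, 0.094. The mean log2 value of the secretory markers was 13.195 on knockout array 1 and 13.99 to 14.27 on all other arrays. Its part in the member values of knockout array 1, such as low *Clps* and *Liph*, was not tested. The seminal vesicle markers, 5 of 6 measured, had a median of 0.47 but overlapped fully between the genotypes, at 8.82 to 13.75 on the knockout and 7.59 to 14.15 on the wild-type arrays. No marker in these lists was called.

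For each member with a mean log2 value of at least 5 over all arrays, the genes with the most similar pattern over the 8 arrays were sought among 14296 genes by Pearson correlation, as a description of arrays that share genotype and array day. *Pnliprp2* reached that level only through its knockout arrays, and the correlations of *Pnliprp1* and *Pnliprp2* rest on the genotype difference that chose the group. They were each other's closest genes (r = 0.997). Next to *Pnliprp1* came *Lta4h*, leukotriene A4 hydrolase (r = 0.990, log2 fold change 0.38, adjusted p 0.0812), and *Spag1* (r = 0.987), which rose by 3.77 (adjusted p 6.61e-04). Next to *Pnliprp2* came *Lta4h* (r = 0.993) and *H2aw*, a histone gene (r = 0.988), which rose by 0.60 (adjusted p 0.0435). A correlation of this kind takes no account of size, since *Lta4h* differed far less than the lipases.

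*Clps* was closest to *Pla2g12a* (r = 0.993), *Pgm1*, a phosphoglucomutase (r = 0.991), and *1810010H24Rik* (r = 0.990), each lower in the mean in knockout prostate by less than 0.5 and none called. *Liph* was closest to *Trappc9* (r = 0.991), *Slamf9* (r = 0.991) and *Tmem144* (r = 0.987). *Lipa* was closest to *Slc16a11*, a monocarboxylate transporter relative (r = 0.979), *Hal*, histidine ammonia-lyase (r = 0.973), and *Cdc42*, a small GTPase (r = 0.966), of which *Hal* rose by 1.15 (adjusted p 0.0336). *Lipg* was closest to *Snhg17* (r = 0.969), *Mylip* (r = 0.968) and *Mob3c* (r = 0.965), and *Lpl* to *Adam12* (r = 0.961), *Scamp5* (r = 0.929) and *Ipcef1* (r = 0.921). Among the other members, *Clps* and *Liph* were the closest pair (r = 0.936).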

How the data were processed

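RNA from whole prostate, 4 knockout and 4 wild-type samples, was hybridized to Affymetrix Mouse Genome 430 2.0 arrays. The deposited log2 values were made by the authors with RMA (version not given in the sources used here), and no detection calls were used. The labels name Trizol for RNA extraction and the methods a Qiagen RNeasy kit. Groups came from the genotype labels, and array day from the dates in the titles.

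The values were fitted with limma (version 3.58.1, R 4.3.3) to genotype plus array day by lmFit, with moderated 2-sided tests from eBayes. Benjamini-Hochberg adjustment covered 45037 probe sets, 64 control probe sets having been left out, and calls were made where the adjusted p fell under 0.05. The methods' ANOVA without covariates was an alternative. p-values measure the spread between 4 arrays of each genotype, and this number limits the precision. Probe sets were named by the platform annotation, in which 932 had several symbols and 9160 none. A gene was represented by its brightest probe set by mean over the arrays.

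Motifs were searched on both strands of RefSeq promoter windows of GRCm38.p6, and 18032 of 18193 genes were matched to RefSeq for gene order. Gene names given are all members, *Olfm4*, up to 3 genes with the smallest p of each lipid or acinar list and those called there, the nearest 3 genes on either side of the cluster and the 3 genes most alike to each member, plus those said to be chosen later. The members and lists were chosen with earlier results of these data known. Alternatives were the fit without array day, the replicate number as a block, array weights, a variance trend with robust fitting, quantile normalization, centring, filters at mean log2 values of 5 and 7, each array day alone, and leaving out arrays. Plots were drawn with matplotlib 3.10.9.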

Additional observations from a re-analysis of the deposited data

Results flagged for a closer look

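Among 32 groups of 4 arrays, 1 for each genotype and member probe set, a single array lay far from the other 3. This was wild-type array 2 on *Pnliprp2* probe set 1448186_at, at 3.858 against 4.52 to 4.65 on the others, with a gap of 0.837 of the range of the group. Chance gives about 1 such array in 20 groups, and all 4 values were near background.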

How the results depend on the processing

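The difference of *Pnliprp2*, which chose the group together with *Pnliprp1*, was 6.50 on array day 1 alone and 7.60 on day 2 alone, against 7.05. No other member probe set, lipid gene or neighbor of the cluster was called under any alternative run. The count of called pancreatic acinar genes ran from 0 to 1 when each array was left out in turn, the 1 being *Cela1* without knockout array 1, and it was 1 without knockout array 1 and wild-type array 1. Without knockout array 1 the *Clps* differences were -1.67 and -1.19. The cause was not tested. The number of called probe sets over the whole array was 50 with array day in the fit, 71 without it, 24 by ANOVA, 73 with an intensity trend and robust variance, 4 on either day alone and 17 to 43 with 1 array left out. The same replicate numbers did not pair the arrays, since deviations of same-numbered arrays correlated at 0.365, 0.201, 0.0743 and -0.0236, and only knockout array 1 correlated best with its own number. With the replicate block in place of array day the *Pnliprp2* difference was 7.05 and 20 probe sets were called. *Pnliprp1* and *Pnliprp2* aside, no member was called. Low signal limits *Cel*, *Pnliprp2* in wild-type prostate and the dim acinar genes, for which a difference could have gone unseen.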
